A study of Homo sapiens with 3 samples.

Results

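Amino acid transporters of 6 solute carrier (SLC) families were described in the RNA of DU145 cells. The members were all protein-coding genes named as SLC1A, SLC6A, SLC7A, SLC36A, SLC38A or SLC43A with a number, apart from SLC7A11. This gave 56 of the 58735 genes listed, of which 7 belong to SLC1, 19 to SLC6, 12 to SLC7, 4 to SLC36, 11 to SLC38 and 3 to SLC43. The rule itself uses no measured value. DU145 is an established cell line of human prostate carcinoma, which does not depend on androgen for growth.

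There were 3 RNA-seq libraries, all from DU145 cells. The methods name the empty vector pLKO.1 as the control of the stable lines, without saying that the sequenced control carried it, and the libraries labelled Knockdown1 and Knockdown2 came from cells made with lentiviral hairpins against PD-L1, the ligand of the inhibitory receptor PD-1 on T cells. The stable lines were selected and kept in puromycin, so the hairpin lines are selected populations. The control has no replicate, the knockdown-labelled libraries are 1 for each hairpin, and only 1 hairpin sequence is given in the methods. Nothing states that the libraries came from separate cultures, so p-values measure only the spread between these libraries, largely pooled over genes.

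CD274, which encodes PD-L1, had 204 counts for the control, 213 for the library labelled Knockdown1 and 224 for the library labelled Knockdown2 (log2 fold change 0.05, standard error (SE) 0.20, adjusted p = 0.947 in edgeR's quasi-likelihood test, here the edgeR QL test). The RNA of the targeted gene was thus not lower, so each library is called by its label, on which every direction given here depends. The paper reports that its stable knockdown lines, DU145 among them, were verified by western blot for PD-L1 protein, which RNA counts do not measure. The series text names the thyroid line BCPAP, the heading of the control's counts names RBM45, and the labels give DMEM where the methods give EMEM. All 6 epithelial markers checked (KRT7, KRT8, KRT18, KRT19, EPCAM and CDH1) had at least 755 counts in each library, whereas KLK3, KLK2, TMPRSS2 and ACPP, which mark luminal prostate cells and androgen response, had 0 counts in all 3. KRT7 and KRT19 were higher in the knockdown-labelled libraries at an unadjusted p under 0.05 in the edgeR QL test (11.7% of all genes in either direction). With trends of gene length and GC content removed, 0 of the 6 epithelial markers had such a p. Library totals lay between 14733088 and 15786457 counts, so a count of 0 allows a level of up to 0.204 CPM (counts scaled to library depth) in the shallowest library (3 counts, counting error only).

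Cells take up amino acids through carriers that differ in substrate and in driving force. Sodium-coupled carriers such as those of SLC38 and SLC6 concentrate amino acids inside the cell, exchangers such as SLC7A5 and SLC1A5 trade one amino acid for another, and proton-coupled carriers of SLC36 act at the plasma membrane and the lysosome. Several SLC7 members are light chains that need a glycoprotein, SLC3A2 or SLC3A1, to reach the membrane. Imported leucine, arginine and glutamine feed the lysosomal machinery that activates the growth kinase complex mTORC1, while a shortage of amino acids activates the kinase GCN2 and the transcription factor ATF4.

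Some members have copies in the genome to which their reads can be matched. SLC7A5 is shown because it had the most counts of all members. A stretch of its coding sequence in exon 1 of 10 (GRCh38, chr16:87869189-87869248, minus strand) is set beside the same stretch of the pseudogenes SLC7A5P1 (chr16:29613407-29613466, minus strand, 4 differences from SLC7A5) and SLC7A5P2 (chr16:21520132-21520191, minus strand, 6 differences), with capitals at the positions where the sequences differ.
SLC7A5: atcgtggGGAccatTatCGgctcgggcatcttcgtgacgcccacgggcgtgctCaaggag
SLC7A5P1: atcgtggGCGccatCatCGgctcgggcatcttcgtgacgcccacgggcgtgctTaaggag
SLC7A5P2: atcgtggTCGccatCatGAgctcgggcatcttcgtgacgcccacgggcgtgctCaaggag
SLC7A5P1 had 8, 7 and 20 counts across the control and the libraries labelled Knockdown1 and Knockdown2, and SLC7A5P2 had 0 in all 3, beside 10158 or more for SLC7A5. Few reads were therefore assigned to these copies. The stretch shown was picked as the 60 bases with the most differences from the copies, among those with at most 6 from each. It therefore does not show the typical likeness of these genes. SLC7A5 shares 11.22% of its 31-base words with other genes.

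The creatine transporter SLC6A8 has a comparable copy, SLC6A10P, on another chromosome. Its coding stretch in exon 1 of 13 (GRCh38, chrX:153688722-153688781, plus strand) and the matching stretch of the copy (chr16:32885291-32885350, minus strand) differ at 6 positions, in capitals.
SLC6A8: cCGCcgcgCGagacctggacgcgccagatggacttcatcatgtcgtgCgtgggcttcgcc
SLC6A10P: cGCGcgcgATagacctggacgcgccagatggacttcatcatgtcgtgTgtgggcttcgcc
The stretch shown was picked in the same way, for the most differences. SLC6A10P had 0 counts in all 3 libraries. How reads that match several genes were counted is not stated, so the values of SLC6A8, which shares 19.83% of its 31-base words with other genes, are uncertain to that extent. Among all 56 members, 7 shared more than 10% of these words with another gene.

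Of the 56 members, 12 had 0 counts in all 3 libraries, 9 had between 1 and 9 counts in sum and were not tested, and 35 were tested. A mean of at least 100 counts was reached by 20 members, and a mean of at least 1 FPKM (fragments per kilobase of gene length, scaled to library depth) by 21. The 7 most abundant members took 88.01% of the summed FPKM of all members in the control, 88.19% in the library labelled Knockdown1 and 87.31% in the library labelled Knockdown2. The sum itself was 481.0, 479.2 and 478.6 FPKM. Most of the members' summed FPKM therefore came from SLC7A5, SLC38A2, SLC1A5, SLC6A6, SLC38A1, SLC7A1 and SLC38A10. Carriers outside the rule are not in this sum. In bulk RNA, a change in the number of cells that express a gene and a change in its RNA per cell cannot be told apart.

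In order of level, SLC7A5 stood first with 144.2 to 153.0 FPKM, followed by SLC38A2 with 73.2 to 90.2 FPKM and SLC1A5 with 50.4 to 57.1 FPKM. The ranges of these 3 genes over the libraries did not overlap. Next came SLC6A6 (39.1 to 46.1 FPKM), SLC38A1 (37.5 to 42.3 FPKM) and SLC7A1 (35.8 to 37.8 FPKM), where each range overlapped the next of the 3, and SLC38A10 (20.5 to 22.6 FPKM), which stood apart from both neighbours. From SLC7A6 down to SLC43A2 the ranges of all neighbours overlapped, between 2.93 and 8.22 FPKM, so no order among them is given. Among the 20 pairs of neighbours compared, 11 overlapped and 9 did not.

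**Figure D1:**
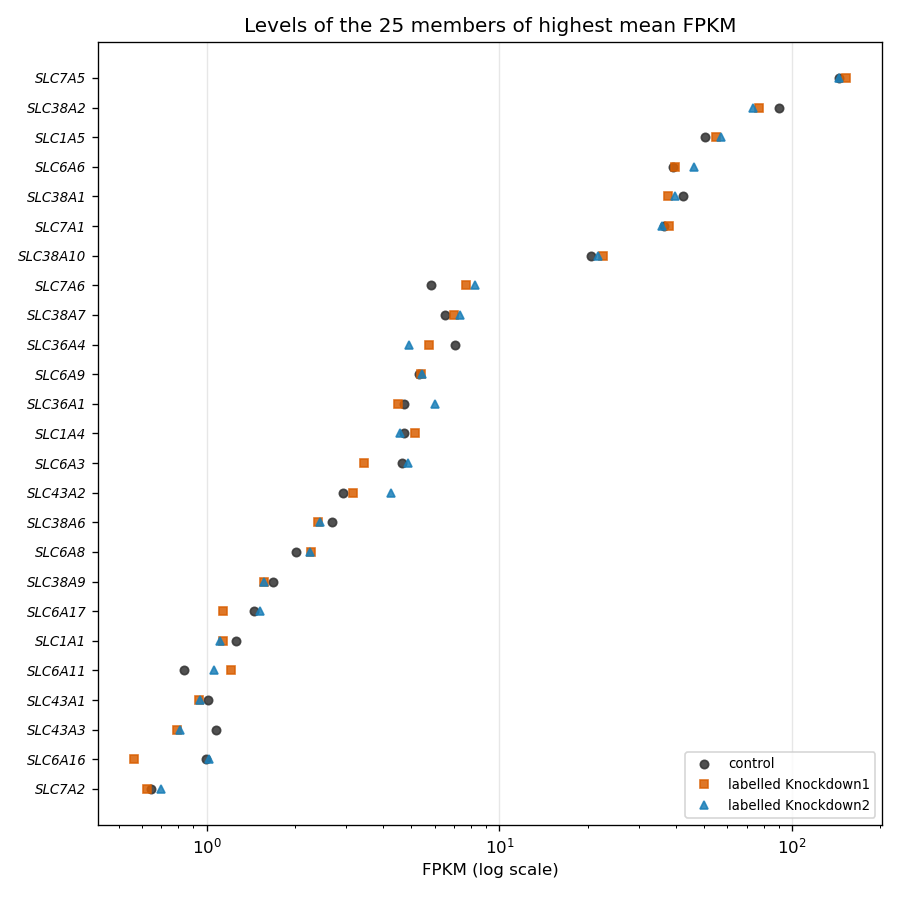
Level of the 25 members of highest mean FPKM in each of the 3 libraries, with FPKM on a log axis and 1 point for each library (circle, control; square and triangle, libraries labelled Knockdown1 and Knockdown2). SLC7A5 lies at 144.2 to 153.0 FPKM, and a gap separates SLC38A10, at 20.5 FPKM or more, from SLC7A6, at 8.22 FPKM or less.

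Between conditions, 0 of the 35 tested members had an adjusted p under 0.05 in edgeR's quasi-likelihood test of the 2 knockdown-labelled libraries against the control, where 0.353% of all 19849 genes tested did (70 genes). The smallest adjusted p of a member was 0.170. The DESeq2 Wald test also called 0 members. No member passed an unadjusted p under 0.05 together with an absolute log2 fold change above 1, which 2.48% of all genes passed. An unadjusted p under 0.05 alone was reached by 4 members, against 11.7% of all genes, with SLC7A6 and SLC43A2 higher and SLC36A4 and SLC38A2 lower in the knockdown-labelled libraries. With trends of gene length and GC content removed 1 member reached it (SLC7A6), against 6.73% of all genes, and with the DESeq2 Wald test 3 members did, against 2.29% of all genes.

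The members' fold changes were about as wide as those of other genes. For the 20 members with a mean of at least 100 counts, the median log2 fold change was 0.04 and the median absolute log2 fold change was 0.14, against 0.0031 and 0.15 for the 10861 genes of that depth. The 20 values ran from -0.41 for SLC36A4 to 0.44 for SLC6A11. Over all 35 tested members the median was 0.0056, and over all genes tested 0.0015. An absolute log2 fold change above 1 was found for 4 members, SLC7A8, SLC38A5, SLC7A9 and SLC6A13, which had a mean of at most 6.67 counts.

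**Figure D2:**
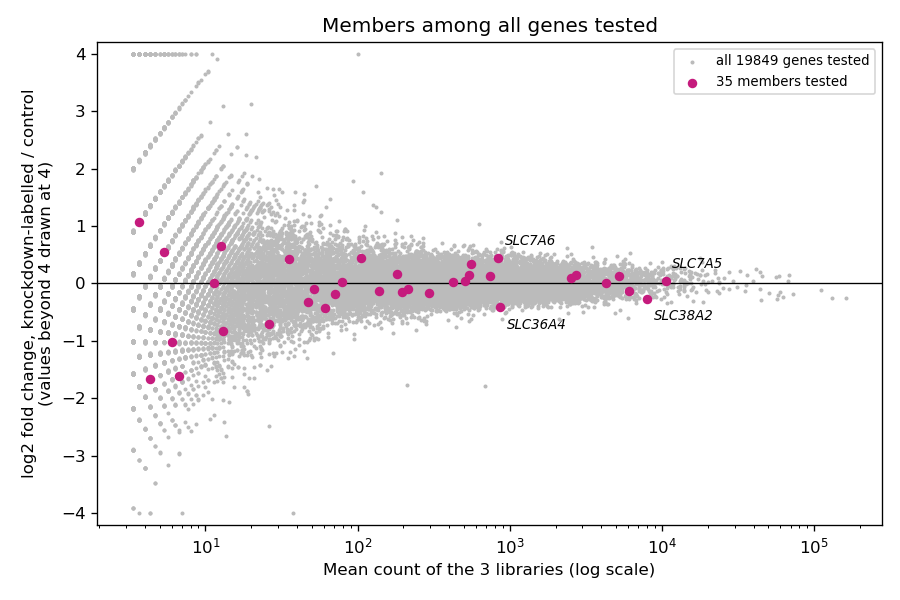
Log2 fold change of the knockdown-labelled libraries against the control (vertical axis) and mean count of the 3 libraries (log axis), with all 19849 tested genes in grey and the 35 tested members in colour. The members lie within the cloud of other genes, and the 4 beyond a log2 fold change of 1 have a mean of at most 6.67 counts.

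Single libraries were also compared by exact 95% counting intervals of the ratio of their scaled counts, which compare the libraries and not the conditions. Against the control, the interval lay above 1 in the library labelled Knockdown1 for 5 of the 35 members (15.4% of all genes) and below 1 for 7 (13.6% of all genes). In the library labelled Knockdown2 it lay above 1 for 6 members (19.5% of all genes) and below 1 for 5 (18.7% of all genes). Between the knockdown-labelled libraries, the second was higher for 7 members (12.9% of all genes) and lower for 6 (13.3% of all genes). These counts were not far from the shares of all genes, and nothing particular to the members is read from them. Off 1 on the same side in both libraries, which share the control, were SLC1A5 and SLC7A6 (above) and SLC36A4, SLC38A1 and SLC38A2 (below). No share of all genes is given for this joint listing, so nothing particular to the members is read from it either.

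**Figure D3:**
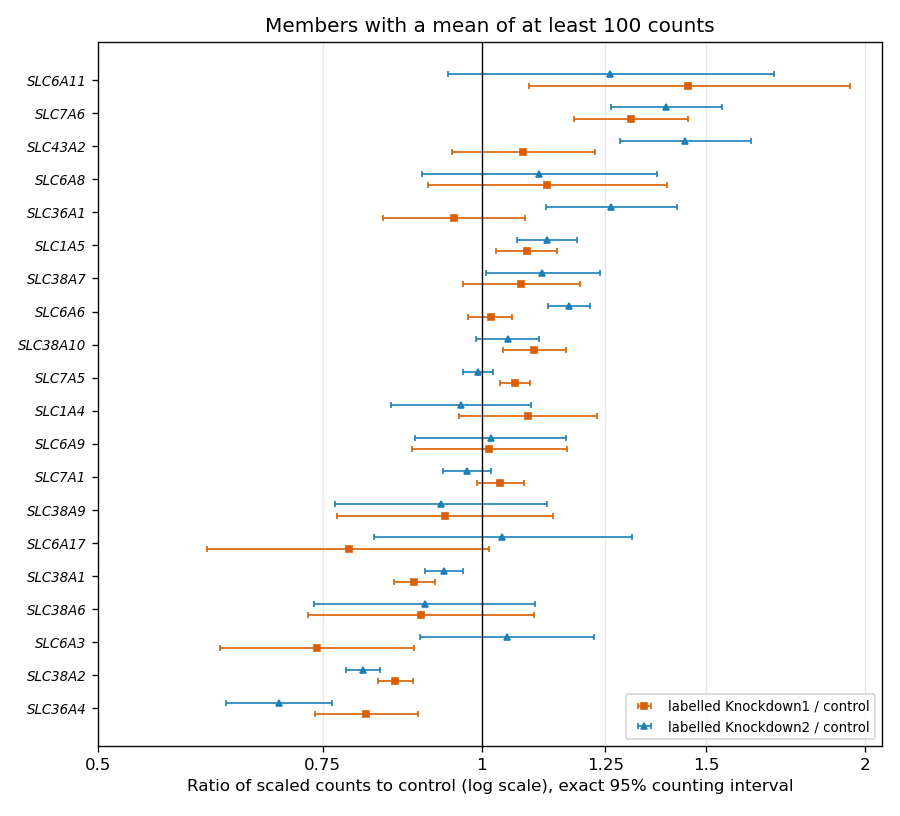
Ratio of scaled counts to the control for the 20 members with a mean of at least 100 counts, on a log axis, with exact 95% counting intervals as bars (square, library labelled Knockdown1; triangle, library labelled Knockdown2). Both intervals of SLC7A6 lie above 1 and both of SLC36A4 and SLC38A2 below, while SLC43A2 is off 1 only in the library labelled Knockdown2.

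The exchangers of large neutral amino acids were led by SLC7A5 (LAT1), which imports leucine and other essential amino acids. SLC7A5 had 10158 counts for the control, 10735 for the library labelled Knockdown1 and 10808 for the library labelled Knockdown2. After scaling, the ratio to the control was 1.06 (95% counting interval 1.03 to 1.09) in the former and 0.994 (0.967 to 1.02) in the latter, so the knockdown-labelled libraries fell on different sides of the control. The log2 fold change was 0.04 (SE 0.11, adjusted p = 0.927 in the edgeR QL test). Its heavy chain SLC3A2, the partner that carries it to the membrane, had 3523, 3777 and 3895 counts in the same order (log2 fold change 0.08, adjusted p = 0.846 in the same test). The other heavy chain, SLC3A1, had 0, 3 and 2 counts.

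SLC43A2 (LAT4), which lets branched-chain amino acids and phenylalanine leave the cell by facilitated diffusion, had 461 counts for the control, 495 for the library labelled Knockdown1 and 713 for the library labelled Knockdown2. Only the last stood apart, with a scaled ratio of 1.44 to the control (95% counting interval 1.28 to 1.63) beside 1.08 (0.948 to 1.23) in the library labelled Knockdown1. Its log2 fold change was 0.34 (SE 0.16, unadjusted p = 0.0352 and adjusted p = 0.378 in the edgeR QL test), and it was 0.23 with trends of gene length and GC content removed. Its relative SLC43A1 (LAT3) had 53, 49 and 53 counts. SLC7A8 (LAT2), another light chain, had 12, 3 and 5 counts, all near the limit of detection. Summed over the 4 carriers, the level was 148.2, 157.2 and 149.4 FPKM, most of it from SLC7A5 in all 3 libraries.

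Among carriers of glutamine and small neutral amino acids, SLC38A2 (SNAT2), a sodium-coupled carrier known to respond to amino acid shortage, had 8842 counts for the control, 7532 for the library labelled Knockdown1 and 7637 for the library labelled Knockdown2. Both libraries lay below the control, with ratios of 0.856 (95% counting interval 0.830 to 0.882) and 0.807 (0.782 to 0.832). For SLC38A2 the log2 fold change was -0.27 (SE 0.11, unadjusted p = 0.0136 and adjusted p = 0.290 in the edgeR QL test). With trends of gene length and GC content removed it was -0.07 (unadjusted p = 0.361 in the same test).

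SLC38A1 (SNAT1), its neighbour in the genome and in function, had 6294, 5549 and 6295 counts across the control and the libraries labelled Knockdown1 and Knockdown2. The scaled ratios were 0.886 (95% counting interval 0.854 to 0.918) and 0.934 (0.902 to 0.967), both below 1. Its log2 fold change was -0.14 (SE 0.11, adjusted p = 0.662 in the edgeR QL test), and 0.02 with the trends removed, so the direction was not kept.

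SLC1A5 (ASCT2), an exchanger of glutamine and other neutral amino acids, had 2495 counts for the control, 2695 for the library labelled Knockdown1 and 3005 for the library labelled Knockdown2. Both scaled ratios exceeded 1, at 1.08 (95% counting interval 1.03 to 1.15) and 1.12 (1.07 to 1.19). SLC1A5 had a log2 fold change of 0.14 (SE 0.12, adjusted p = 0.663 in the edgeR QL test), which was -0.06 with the trends removed. Of its 31-base words 22.75% are shared, above all with AC008622.2 on the opposite strand, which had 2, 1 and 6 counts. In both libraries SLC38A1 and SLC38A2 thus lay below the control and SLC1A5 above it by more than counting error, and none of them passed the test over all genes.

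The remaining small neutral carriers had fewer counts. SLC1A4 (ASCT1), an exchanger of alanine, serine and cysteine, had 487, 527 and 502 counts across the control and the libraries labelled Knockdown1 and Knockdown2. The glycine transporter SLC6A9 (GlyT1) had 408, 412 and 444 counts. Neither interval against the control was off 1 for these genes, which therefore did not differ beyond counting error. SLC6A14, a carrier of neutral and cationic amino acids, had 28, 44 and 34 counts, and SLC38A3 had 18, 7 and 14. SLC38A5 had 8, 5 and 0 counts, where the 0 allows a ratio to the control of up to 0.547 (upper end of the 95% counting interval). Over the whole group of 16 carriers, 4 had 0 counts in all libraries, 8 were tested, and the summed FPKM was 194.0, 180.8 and 180.9.

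SLC7A1 (CAT1) is the main carrier of arginine and lysine in many cells. It had 4177, 4301 and 4353 counts across the control and the libraries labelled Knockdown1 and Knockdown2, and neither interval against the control was off 1, whereas the library labelled Knockdown2 was below that labelled Knockdown1 (ratio 0.941, 95% counting interval 0.902 to 0.982). Its fitted log2 fold change was 0.0054 (SE 0.11, adjusted p = 0.990 in the edgeR QL test). SLC7A2 (CAT2) was far lower, with 76, 73 and 87 counts.

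SLC7A6 (y+LAT2), a light chain that exchanges cationic for neutral amino acids, showed the smallest p of all members. It had 659 counts for the control, 859 for the library labelled Knockdown1 and 985 for the library labelled Knockdown2. The 2 knockdown-labelled libraries lay above the control at ratios of 1.31 (95% counting interval 1.18 to 1.45) and 1.40 (1.26 to 1.54), and their own ratio of 1.07 was not off 1 (0.972 to 1.17). For SLC7A6 the log2 fold change was 0.44 (SE 0.14, unadjusted p = 0.00261 and adjusted p = 0.170 in the edgeR QL test). With the trends removed it was 0.50 (unadjusted p = 0.000374 and adjusted p = 0.249 in the same test).

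SLC7A6 lies on the plus strand of chromosome 16 (GRCh38, 68264516 to 68301823) and overlaps exons of SLC7A6OS on the opposite strand. Of its 31-base words 53.55% are shared with other genes, 42.82% with SLC7A6OS. Whether the counting used the strand is not stated, so reads of these genes cannot be told apart here. SLC7A6OS had 146, 196 and 214 counts across the control and the libraries labelled Knockdown1 and Knockdown2 (log2 fold change 0.44, unadjusted p = 0.0420 and adjusted p = 0.402 in the edgeR QL test). Both overlapping genes were thus higher by a like amount. A further overlapping gene, AC020978.9, had 28, 51 and 29 counts.

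SLC7A9, the light chain of the cystine and cationic amino acid exchanger of kidney, had 9, 6 and 3 counts, and SLC7A7 had 11, 6 and 17, so neither could be compared with precision. The related cystine and glutamate exchanger SLC7A11, which is no member, had 2702, 2099 and 1505 counts (log2 fold change -0.62, adjusted p = 0.000250 in the edgeR QL test). With the trends removed its log2 fold change was -0.35 (unadjusted p = 0.00832 from that fit), and the unadjusted p of the DESeq2 Wald test was 0.207.

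Among proton-coupled and lysosomal carriers, SLC36A4 (PAT4), a carrier of proline and tryptophan, had 1016 counts for the control, 821 for the library labelled Knockdown1 and 754 for the library labelled Knockdown2. All 3 libraries differed from each other beyond counting error, with ratios against the control of 0.812 (95% counting interval 0.739 to 0.891) and 0.693 (0.630 to 0.762) and a ratio between the other two of 0.854 (0.773 to 0.944). SLC36A4 had a log2 fold change of -0.41 (SE 0.14, unadjusted p = 0.00289 and adjusted p = 0.1795 in the edgeR QL test). With the trends removed it was -0.13 (unadjusted p = 0.262 in the same test).

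SLC36A1 (PAT1), which exports small amino acids from the lysosome, had 490, 464 and 663 counts across the control and the libraries labelled Knockdown1 and Knockdown2. Only the library labelled Knockdown2 stood above the control, at a ratio of 1.26 (95% counting interval 1.12 to 1.42), and it was also above the library labelled Knockdown1 at 1.33 (1.18 to 1.499). SLC38A7 (SNAT7), which releases glutamine from lysosomes, had 677, 724 and 809 counts, where only the library labelled Knockdown2 was off the control (ratio 1.12, 95% counting interval 1.01 to 1.24). SLC38A9, the lysosomal arginine sensor upstream of mTORC1, had 220, 205 and 219. The intervals of SLC38A9 all contained 1. SLC36A1 had an adjusted p of 0.761, SLC38A7 of 0.776 and SLC38A9 of 0.892 in the edgeR QL test. SLC36A2 and SLC36A3 had 0 counts.

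The taurine transporter SLC6A6 was the most abundant SLC6 member, with 4795 counts for the control, 4849 for the library labelled Knockdown1 and 6014 for the library labelled Knockdown2. The control and the library labelled Knockdown1 did not differ beyond counting error (ratio 1.02, 95% counting interval 0.976 to 1.06), whereas the library labelled Knockdown2 was higher (1.17, 1.13 to 1.22). For SLC6A6 the log2 fold change was 0.13 (SE 0.11, adjusted p = 0.686 in the edgeR QL test). The creatine transporter SLC6A8 had 165, 185 and 196 counts, and its intervals all contained 1.

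Some SLC6 members known from nerve cells were also counted. SLC6A3, the dopamine transporter, had 307, 227 and 344 counts across the control and the libraries labelled Knockdown1 and Knockdown2. The library labelled Knockdown1 was below the control at a ratio of 0.743 (95% counting interval 0.623 to 0.885), and the library labelled Knockdown2 was not (1.05, 0.895 to 1.23). SLC6A11 (GAT3), a transporter of the inhibitory transmitter GABA, had 83, 120 and 112 counts, off the control in the library labelled Knockdown1 (ratio 1.45, 95% counting interval 1.09 to 1.94) and not in the other (1.26, 0.940 to 1.69), with a log2 fold change of 0.44 (SE 0.27, adjusted p = 0.532 in the edgeR QL test). SLC6A17, a vesicular carrier of neutral amino acids, had 143, 112 and 159 counts, and SLC6A16, which has no known substrate, had 53, 30 and 58. For SLC6A3, SLC6A16 and SLC6A17 the library labelled Knockdown1 was thus the lowest. SLC6A12, SLC6A13 and SLC6A4 had at most 20 counts in a library, and the noradrenaline transporter SLC6A2 had 0.

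The glutamate carriers of SLC1 were weakly represented. SLC1A1 (EAAT3), the sodium-coupled carrier of glutamate and aspartate outside the brain, had 75, 67 and 70 counts across the control and the libraries labelled Knockdown1 and Knockdown2. SLC1A3 (EAAT1) had 35, 25 and 19 counts, SLC1A7 had 0, 0 and 5, and the brain transporters SLC1A2 and SLC1A6 had 0. The 5 acidic carriers together made up 1.64, 1.40 and 1.36 FPKM, and neither tested carrier passed the test.

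Among members with less well known or other substrates, SLC38A10 had 2353, 2577 and 2639 counts across the control and the libraries labelled Knockdown1 and Knockdown2. Only the library labelled Knockdown1 was off the control, at a ratio of 1.10 (95% counting interval 1.04 to 1.16). For SLC38A10 the log2 fold change was 0.10 (SE 0.12, adjusted p = 0.786 in the edgeR QL test). SLC38A6 had 205, 183 and 198 counts, and SLC43A3, a carrier of purine bases, had 72, 53 and 58. All intervals of these 2 genes contained 1. SLC43A3 shares 27.48% of its words, above all with AP000781.2, which had 0 counts.

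The other members with 0 counts in all 3 libraries were SLC6A5, SLC6A7, SLC6A15, SLC6A19, SLC7A3, SLC7A13 and SLC38A11. Among the members with a sum of 1 to 9 counts were SLC1A7, SLC6A18, SLC6A20, SLC7A4, SLC7A10, SLC7A14, SLC38A4 and SLC38A8, none above 6 counts in any library.

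By family, SLC7 took 39.1%, 41.6% and 39.6% of the members' FPKM across the control and the libraries labelled Knockdown1 and Knockdown2. SLC38 took 34.18%, 31% and 30.55%, SLC1 took 11.8%, 12.8% and 13.2%, and SLC6 took 11.5%, 11.4% and 13.2%. SLC36 and SLC43 stayed under 3% in each library. The order of SLC7 and SLC38 was thus the same in the 3 libraries.

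Fold changes moved with the base composition of the transcripts. For the 20 members with a mean of at least 100 counts, GC content ran from 36.4% for SLC36A4 to 62.7% for SLC38A10, and Spearman's rho between GC content and log2 fold change was 0.436. Over the 10861 genes of that depth it was 0.681. These are descriptions across genes that share the same 3 libraries. SLC38A2 has a GC content of 38.8%, so SLC36A4 and SLC38A2 had the lowest GC content and the lowest log2 fold changes of these 20. After trends with gene length and GC content were removed, rho was -0.284 in these 20 members, SLC7A6 had the highest log2 fold change among them (0.50), and 7 of the 25 members described in full changed direction.

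**Figure D4:**
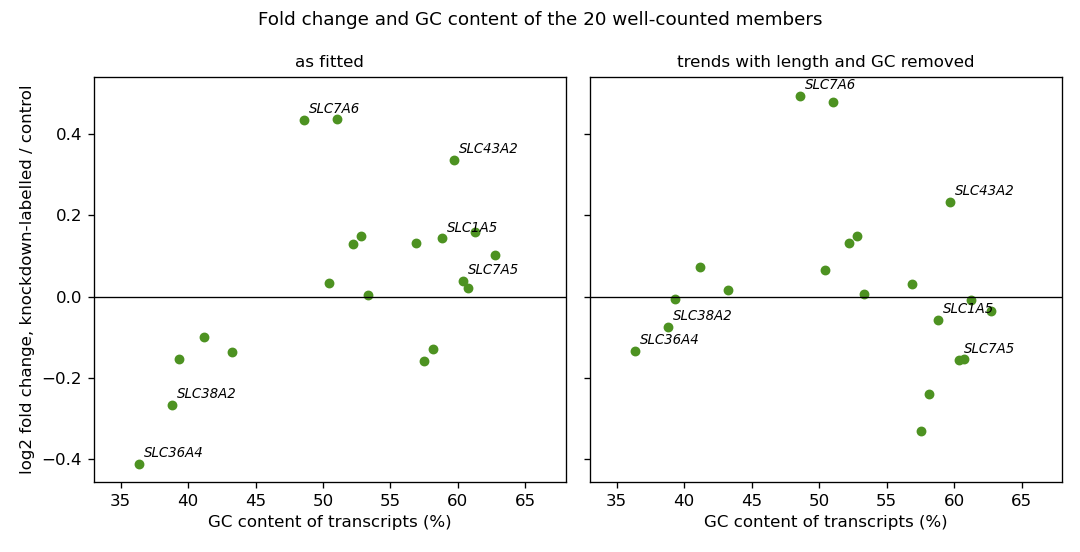
Log2 fold change of the knockdown-labelled libraries against the control and GC content of the transcripts (percent) for the 20 members with a mean of at least 100 counts, as fitted (left) and with trends of gene length and GC content removed (right). SLC36A4 moves from -0.41 to -0.13 and SLC38A2 from -0.27 to -0.07, while SLC7A6 stays at 0.44 and 0.50.

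The pathways around the carriers were followed in lists of genes grouped by function. In the list of amino acid sensing by mTORC1, 36 genes were tested, and 6 were higher and 1 lower at an unadjusted p under 0.05 (11.7% of all genes in either direction), with 0 at an adjusted p under 0.05 in the edgeR QL test. AKT1S1, which encodes the mTORC1 inhibitor PRAS40, had 987, 1245 and 1522 counts across the control and the libraries labelled Knockdown1 and Knockdown2 (log2 fold change 0.44, adjusted p = 0.116 in the same test). The Rag GTPases RRAGD and RRAGC, which tether mTORC1 to the lysosome, had log2 fold changes of 0.53 (adjusted p = 0.317 in the same test) and -0.43 (adjusted p = 0.374 in the same test). LAMTOR4, a subunit of the lysosomal anchor of the Rag GTPases, had a log2 fold change of 0.38 (adjusted p = 0.372 in the same test). The median log2 fold change of the tested genes of this list was 0.08. With the trends removed, 3 genes of the list in place of 7 had an unadjusted p under 0.05, against 6.73% of all genes.

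In the amino acid response through GCN2 and ATF4, 12 genes were tested, 1 was higher and 0 lower at an unadjusted p under 0.05 (11.7% of all genes in either direction), and 0 passed the adjusted p of edgeR's quasi-likelihood test. The single gene, DDIT3, a stress-induced transcription factor, had 81, 115 and 129 counts across the control and the libraries labelled Knockdown1 and Knockdown2 (log2 fold change 0.54, adjusted p = 0.404 in the same test). The median of the list was 0.0082, and -0.07 with the trends removed. In that fit DDIT3 had an unadjusted p of 0.0607 in the edgeR QL test. Only 1 gene of the list then had an unadjusted p under 0.05, against 6.73% of all genes. It was TRIB3, which was lower (log2 fold change -0.32, unadjusted p = 0.0140 in the edgeR QL test of that fit).

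Of the enzymes that use imported amino acids, 22 were tested, 1 was higher and 6 lower at an unadjusted p under 0.05 (11.7% of all genes in either direction), and 0 passed the adjusted p of edgeR's quasi-likelihood test. ASS1, which makes argininosuccinate on the way to arginine, had 154, 233 and 282 counts (log2 fold change 0.69, adjusted p = 0.114 in the same test). The branched-chain aminotransferase BCAT1 had 4777, 4147 and 3505 counts, and the serine synthesis enzyme PSAT1 had 7309, 6739 and 5724. For both enzymes the control was the highest library and the library labelled Knockdown2 the lowest. Their log2 fold changes were -0.36 and -0.27, which became -0.14 and -0.22 with the trends removed. The median of the list was -0.10, and with the trends removed 4 of its genes in place of 7 had an unadjusted p under 0.05 (6.73% of all genes).

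Of amino acid carriers of other families 7 were tested, and 1 was higher at an unadjusted p under 0.05 (11.7% of all genes in either direction). This was the peptide transporter SLC15A2, with 4, 31 and 9 counts across the control and the libraries labelled Knockdown1 and Knockdown2 (log2 fold change 2.26, adjusted p = 0.248 in the edgeR QL test). In the list of partner subunits 2 genes were tested and neither had an unadjusted p under 0.05. Of the copies of members, SLC7A5P1 was tested, as was SLC7A11, which was kept in that list though it is no copy. Markers of blood, vessel, connective tissue, nerve and thyroid cells were at 0 to 15 counts in every library except COL1A1 (101, 98 and 149) and GFAP (78, 80 and 51).

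The windows around RefSeq transcription starts (GRCh38.p14, 250 bases before to 50 after) were searched on both strands for TGATGNAA, the letters of the amino acid response element that ATF4 is known to bind. The motif was found in 5 of the 63 windows of the 43 members matched by symbol (7.94%) and in 1270 of all 35116 windows (3.62%). The members were SLC1A3, SLC1A4, SLC1A5, SLC38A1 and SLC7A1. The matches of SLC1A3 (chr5:36596348-36596395, plus strand, motif starting at position -220 from the start) and SLC1A5 (chr19:46784884-46784931, minus strand, motif starting at position -97 from the start) are shown because they lie wholly before a start, with the motif in capitals and 20 bases on each side.
SLC1A3: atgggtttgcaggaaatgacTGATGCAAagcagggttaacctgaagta
SLC1A5: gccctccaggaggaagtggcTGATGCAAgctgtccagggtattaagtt
Of the 5 genes, SLC1A5 had a log2 fold change of 0.14, SLC1A4 of 0.03, SLC7A1 of 0.0054, SLC38A1 of -0.14 and SLC1A3 of -0.71 (SE 0.49). None had an unadjusted p under 0.05 in the edgeR QL test. With the trends removed SLC1A5 was at -0.06 and SLC38A1 at 0.02. These values therefore show neither a common nor a divergent movement. Both matches shown belong to starts other than the annotated ends of these genes. That of SLC1A3 lies before the gene (starting at 36606355), and that of SLC1A5 lies within it (46774883 to 46788594). A match is a description of the letters and not a site.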

How the data were processed

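RNA of 3 libraries of DU145 cells was measured by RNA-seq. The authors deposited read counts per gene, without normalization, and FPKM for 58735 genes, and each FPKM was checked to be the count over gene length, times 1 factor for each library. The submitters' processing notes name Bowtie2 2.0.6, TopHat2 2.0.9, Cufflinks 2.1.1 and Cuffdiff 2.1.1, while the counting tool, its use of strand and its treatment of reads with several matches are not given in the sources used here. All gene identifiers are in GENCODE v29 (GRCh38), 58724 with the same start and end.

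The 19849 genes whose counts summed to 10 or more entered the test in edgeR 4.0.16 under R 4.3.3 (TMM, quasi-likelihood functions glmQLFit, glmQLFTest, Benjamini-Hochberg adjustment over all tested genes), with the 2 knockdown-labelled libraries against 1 control. The fit has 1 residual degree of freedom, so its spread comes from libraries of different hairpins, and no test covers variation between control cultures. Its prior degrees of freedom were infinite, so an SE follows the spread pooled over genes and not that of the gene's own libraries. DESeq2 1.42.0, other scalings and filters, and removal of trends with gene length and GC content (20 classes of each) were the alternatives. Levels of different genes were compared only as FPKM. Ratios of libraries were scaled by TMM library sizes and have exact 95% binomial counting intervals, computed with scipy 1.17.1. Such intervals and the limit of 3 counts cover counting error only, since PCR copies of a molecule would be counted as separate reads. Shared sequence is given as the percentage of 31-base words of a gene that transcripts of other genes also hold. The members and lists were chosen with earlier results of these data known. Members given in full were the 25 of highest mean FPKM, those of unadjusted p under 0.05 and those whose counting interval was off 1 in the same direction in both knockdown-labelled libraries. Of each list at most 4 genes of smallest p were named, besides SLC3A2, SLC3A1, counted copies and marker genes. Other members are named with their counts. Some genes of the families and lists are not reported here.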

Additional observations from a re-analysis of the deposited data

How the results depend on the processing

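The count of 0 members called at an adjusted p under 0.05 and of 0 members past the fold and p limits was the same with DESeq2 size factors, library totals alone, the DESeq2 Wald test, a minimum of 1 count, a mean of at least 20 counts, trends removed and the degrees of freedom of the fit without trends. At an unadjusted p under 0.05 the DESeq2 Wald test gave 3 members and the fit with trends removed 1. The number of all genes called was 70 as reported, 6 with the DESeq2 Wald test, 8 with trends of gene length and GC content removed, and 11 with the 24.1 prior degrees of freedom of that fit in place of an infinite number. The median log2 fold change of the members was -0.044 with a minimum of 1 count and between -0.072 (without the library labelled Knockdown2) and -0.0057 (without the library labelled Knockdown1) when 1 library was left out, where no residual degree of freedom remained and no test was made. Of 175 alternatives with a test for the 25 members described in full, 168 kept the direction and the side of the adjusted p of 0.05 and 7 turned the direction, all 7 with trends removed: SLC7A5 to -0.16, SLC1A5 to -0.057, SLC38A1 to 0.016, SLC38A10 to -0.036, SLC6A9 to -0.15, SLC6A8 to -0.0083 and SLC38A9 to 0.073. No member was near that limit as fitted (smallest adjusted p 0.170 in the edgeR QL test), so keeping its side says little. With trends removed, SLC38A2, SLC36A4 and SLC43A2 no longer had an unadjusted p under 0.05. The cause of these trends was not tested. No paired analysis was possible because the control has only 1 library. With 99% intervals, 8, 9 and 9 members were off 1 in place of 12, 11 and 13, and the shares of all genes at 99% are not given. Members under about 20 counts have intervals too wide to show any but large differences.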

Other observations

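Some members that lie beside each other in the genome differed widely in level. On chromosome 12 (GRCh38), SLC38A1 (starting at 46183063), SLC38A2 (46358189) and SLC38A4 (46764761) had 42.3, 90.2 and 0.0487 FPKM in the control. On chromosome 5, SLC36A3 (151276762) and SLC36A2 (151314978) had 0 counts in all 3 libraries, whereas SLC36A1 (151437046) had 4.73, 4.50 and 6.01 FPKM across the control and the libraries labelled Knockdown1 and Knockdown2. At the other end of that chromosome, SLC6A19 (1201595) had 0 counts and SLC6A18 (1225355) at most 2, while the dopamine transporter SLC6A3 (1392790) had 4.63, 3.44 and 4.88 FPKM. Other neighbours were alike in level, such as SLC43A1 and SLC43A3 on chromosome 11, with 1.01 and 1.07 FPKM in the control.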
